A study of Xenopus laevis with 5 samples.

Results

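The genes described here run the mitotic cell cycle: cyclin-dependent kinases and mitotic cyclins, Aurora and Polo-like kinases, the spindle checkpoint, the kinetochore, condensin and cohesin, the anaphase-promoting complex, and factors of spindle assembly and cytokinesis. They were measured in cultured ectoderm of the frog Xenopus laevis. Members were chosen by gene symbol alone. Every array probe set whose 1 platform symbol began with one of the stems of these gene names was taken, whatever its signal. This gave 114 of 15491 probe sets, or 96 of the 7531 gene symbols that the array names singly. Xenopus laevis is allotetraploid, and .L and .S mark the copies (homeologs) of a gene on the long and short chromosomes, so the 96 symbols stand for 75 genes. Of the 114 probe sets, 92 belong to mitotic roles. The other 22 were caught by the stem and act mainly elsewhere, among them cdk7, cdk9, cdk5 and cdk4.

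The tested explants came from embryos injected at the 2-cell stage with mRNA called ICD (3 arrays), and the explants they were set against came from embryos injected the same way with mRNA called HMM (2 arrays). All embryos grew in 0.1X MMR, a frog saline. Their presumptive ectoderm was cut off at stage 9 to 10, laid on fibronectin, cultured in Danilchik's medium with 0.1% BSA, and harvested at the equivalent of stage 22. The series title names Notch signalling in epidermis as its subject. Neither abbreviation is explained in the labels; in this field ICD commonly means the intracellular domain of Notch, which turns the pathway on, and HMM a truncated human Mastermind, which blocks it. Both groups were injected and no uninjected explants were analysed here, so a difference does not show which group moved. The labels do not say whether replicates came from separate batches of embryos, so every p-value measures only the spread between these samples.

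Entry into mitosis is driven by Cdk1 bound to B-type cyclins. Wee1 holds this kinase back and Cdc25 phosphatases release it. Aurora and Polo-like kinases build the spindle, the checkpoint waits for every kinetochore to attach, and the anaphase-promoting complex (APC/C) with Cdc20 then destroys cyclin B and securin so that chromatids part. In the larval frog skin, dividing progenitors carry this machinery, while multiciliated cells and ionocytes, which arise from the inner layer of the ectoderm, no longer divide. In mouse, differentiating multiciliated cells also use parts of the machinery (Cdk1, Plk1 and APC/C) to time centriole production without dividing.

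Signals were deposited as MAS5 intensities, and differences are ICD minus HMM on the scale log2(signal + 5.9). A probe set was tested if it lay above 42.6 on at least 2 arrays. Of the 114 member probe sets 96 passed that filter, for 80 gene symbols. The arrays were alike in brightness, with medians of 62.1 to 72.7. ICD replicate 3 stood apart in its poly-A spike-in controls, whose median was 2.4 against 301.4 to 346.6 on the other 4 arrays. Without that array cdk7.L was again the 1 member called. The explants carried strong signal of outer epidermis. The goblet cell lectin gene itln1.L read 5924.8, 6788.9 and 10404.4 in ICD and 10233.5 and 8611.6 in HMM. Its groups overlap, and it does not stand for a list of outer-layer and goblet genes. Of the 10 tested probe sets in that list, 6 differences lay above 0 and 4 below. At a limma adjusted p under 0.05, 3 were higher in ICD and none was lower. For 9 genes of the list, each on its brightest probe set, signals added up to 32997 and 32089 in HMM and to 37056 to 42230 in ICD.

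Almost no mitotic gene passed the test between ICD and HMM explants. Of the 96 tested member probe sets, 1 was lower in ICD at a limma adjusted p under 0.05, none was higher, and 95 did not pass. Over all 9981 tested probe sets, 3.5% were called lower and 1.55% higher, so the members' counts do not stand above the background. The called probe set was of cdk7.L, whose main role lies outside mitosis. None of the 80 tested probe sets in mitotic roles passed, whereas 11 of them had an unadjusted p under 0.05 in limma. Over all 96 members that number was 15, with 9 differences above 0 and 6 below, beside 1959 of all 9981 probe sets. Estimated differences were under 1 on the log2 scale, that is, under 2-fold, for 94 of the 96, the exceptions being cdk7.L and 1 probe set of mad2l1.S. For 37 members the whole 95% interval lay within that bound. For the other 59 the interval reached past it, so a missed threshold does not show that the groups were equal.

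The 18 member probe sets that were too dim to test had signals of 1.3 to 53.3. They include the only probe sets of ttk.S, cenpm.L, cenpn.L, smc5.S, anapc10.L, racgap1.S, birc5.L, plk2.L, plk3.S and ccnb1.S, and both of smc6.1.L.

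**Figure D1:**
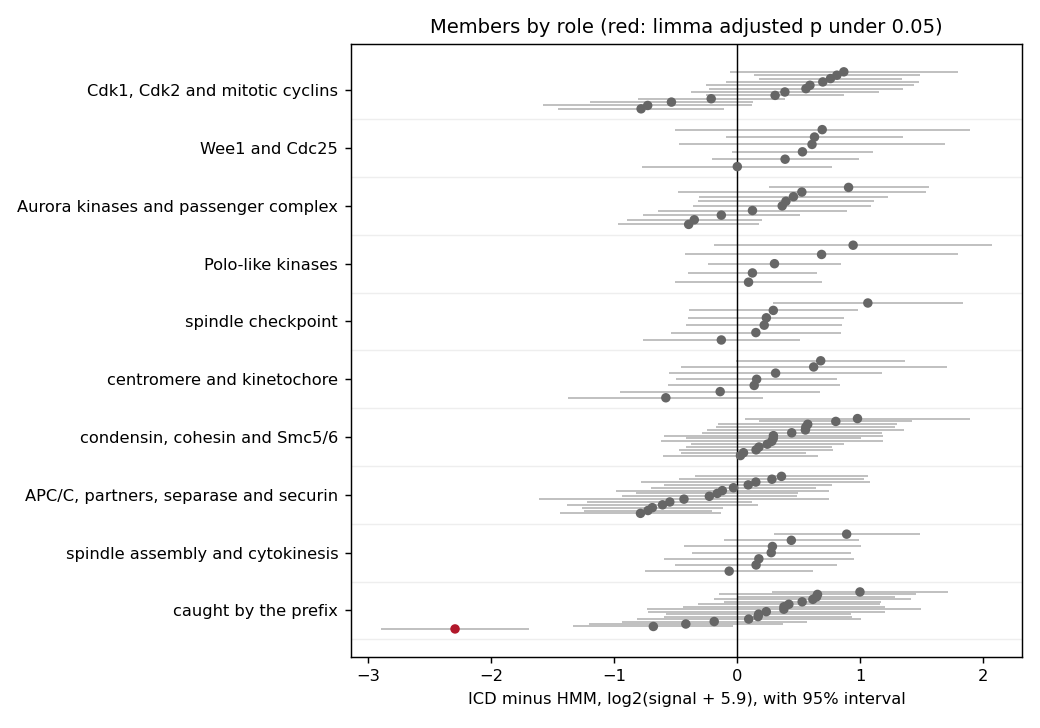
Difference between ICD and HMM explants, on the scale log2(signal + 5.9), of the 96 tested member probe sets, arranged by role, with those caught by the stem (prefix) of the symbol at the bottom. Points are limma estimates over 3 ICD and 2 HMM arrays, lines their 95% intervals, and red marks the 1 probe set with an adjusted p under 0.05 (cdk7.L, at -2.29). The condensin and cohesin probe sets all lie above 0. In the role that joins the APC/C, its partners, separase and securin-binding factors, 10 of 14 lie below 0.

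Cdk7 is the kinase of the Cdk-activating complex, which phosphorylates other Cdks and, within the transcription factor TFIIH, RNA polymerase II. For cdk7.L the signal was 93.1, 112.3 and 84.7 in ICD and 470.7 and 518.5 in HMM. The groups were far apart and each was tight. The difference was -2.29 ± 0.25 (SE), or 4.9-fold lower in ICD (limma adjusted p = 0.0118). It was not called without ICD replicate 2 (adjusted p = 0.0522) or HMM replicate 2 (adjusted p = 0.117), though the size stayed between -2.40 and -2.21 with any 1 array left out. A second cdk7.L probe set was too dim to test, at 17.5, 11.3 and 18.1 in ICD and 39.8 and 37.7 in HMM, all under the filter level.

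Among Cdk1, Cdk2 and their cyclins, cyclin A2 and cyclin B3 were ordered opposite to cyclin B1. None of the 12 tested probe sets passed. The largest difference of the 12 was that of cdk2.S, at 0.87 with overlapping groups, or 0.33 without HMM replicate 2. Cyclin A2 acts in S phase and early mitosis, and ccna2.L read 267.2, 268.6 and 250.6 in ICD and 187.3 and 114.7 in HMM. Every ICD array was above both HMM arrays, and the difference was 0.81 ± 0.29 (SE; limma adjusted p = 0.174), or 0.47 without HMM replicate 2. The homeolog ccna2.S had a difference of 0.59 (0.13 without HMM replicate 2), with groups that overlap. Cyclin B3, a nuclear B-type cyclin, gave the same order: ccnb3.S read 561.5, 595.1 and 768.9 in ICD and 391 and 356 in HMM. The difference was 0.76 ± 0.25 (SE, limma adjusted p = 0.143). Its homeolog ccnb3.L differed by 0.56 on 1 probe set, with ICD replicate 1 inside the HMM range. On the other ccnb3.L probe set the difference was 0.70, without overlap.

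Cyclin B1, the main partner of Cdk1 at mitotic entry, was ordered the other way. For ccnb1.2.L the ICD arrays read 741.9, 621.4 and 661.3 and the HMM arrays 875.2 and 1538.1. All ICD values were below both HMM values, which themselves lay far apart, and the difference was -0.78 ± 0.29 (SE; limma adjusted p = 0.192). It was -0.38 without HMM replicate 2. The homeolog ccnb1.2.S read 756.6, 489.9 and 458.4 in ICD and 836.7 and 774 in HMM, again without overlap (difference -0.53). Its kinase followed the same order less clearly. For cdk1.S the values were 217.8, 475.9 and 345.6 in ICD and 478 and 632.9 in HMM, a difference of -0.73 ± 0.36 (SE; limma adjusted p = 0.335; -0.43 without ICD replicate 1), and the highest ICD array nearly reached the lower HMM array. The probe set of cdk1.L differed by -0.21, with overlapping groups. Cyclin B2, a Golgi-associated B-type cyclin, had differences of 0.39 for ccnb2.L and 0.31 for ccnb2.S.

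The regulators of Cdk1 lay above 0 on all 6 tested probe sets, of 4 gene symbols, beside 55.9% of all tested probe sets. None passed, and the lowest, a dim probe set of wee1.S, lay only just above 0 (0.002). Without HMM replicate 2, 4 of the 6 lay above 0 and their median was 0.25, where it was 0.57 with all arrays. The inhibitory kinase gene wee1.L read 542.6, 379.1 and 319.7 in ICD and 227.9 and 294 in HMM, a difference of 0.63 ± 0.30 (SE; limma adjusted p = 0.321). Inhibitor and activator were thus ordered alike: the phosphatase gene cdc25c.L read 160.4, 176.8 and 187.9 in ICD and 123.4 and 114.8 in HMM, with a difference of 0.53. The embryonic phosphatase gene cdc25a.L showed more spread than difference. It read 326.3 on ICD replicate 1 and 154.1 and 130.6 on ICD replicates 2 and 3, and 180.3 and 71.2 in HMM.

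In the APC/C group, which includes Cdc20, the ubiquitin-conjugating enzyme Ube2c, separase and the securin-binding factors, 10 of 14 tested probe sets lay below 0 (9 of 14 after median centring), beside 4404 of all 9981, and the median was -0.19, beside 0.08. Without HMM replicate 1, 7 of the 14 lay above 0 and the median was -0.16. None passed, and 5 had every ICD array below both HMM arrays, as did 17.0% of all tested probe sets. Of these 5, espl1.L passed the filter through its HMM arrays alone. Cdc20 is the activator that directs the APC/C to cyclin B and securin. The probe set of cdc20.S read 511, 533.5 and 623.6 in ICD and 957.8 and 882.5 in HMM. The groups are well apart, with a difference of -0.72 ± 0.22 (SE; limma adjusted p = 0.127). For cdc20.L the values were 157.4, 288.2 and 288.1 in ICD and 346.6 and 378.2 in HMM, with no overlap and a difference of -0.61 (-0.32 without ICD replicate 1).

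Ube2c, the ubiquitin-conjugating enzyme that works with the APC/C, gave opposite orders in its homeologs. For ube2c.L the ICD arrays read 390.2, 309.1 and 411.3 and the HMM arrays 616.1 and 576.9, a difference of -0.69 ± 0.24 (SE; limma adjusted p = 0.175). For ube2c.S the ICD arrays read 348.4, 603.9 and 624.1 and the HMM arrays 381.5 and 455.3. The HMM values there fall inside the ICD range, and the difference was 0.28 (limma adjusted p = 0.68). The other members with no overlap were the APC/C scaffold gene anapc7.S, at -0.79, and the separase gene espl1.L, at -0.55, both picked out after their values were seen. The probe set of espl1.L read 34.5, 40.3 and 36.4 in ICD and 53.2 and 60.6 in HMM. All its ICD values lie under the filter level. It was thus tested through its HMM arrays alone, and the size of its difference is uncertain. The remaining anapc probe sets, of anapc11, anapc13.2, anapc15 and anapc16, ranged from -0.23 to 0.36. The gene pttg1ip.1.L, whose product binds securin, varied more within groups than between them, at 111.7, 228.9 and 366.7 in ICD and 221.1 and 373.3 in HMM.

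**Figure D2:**
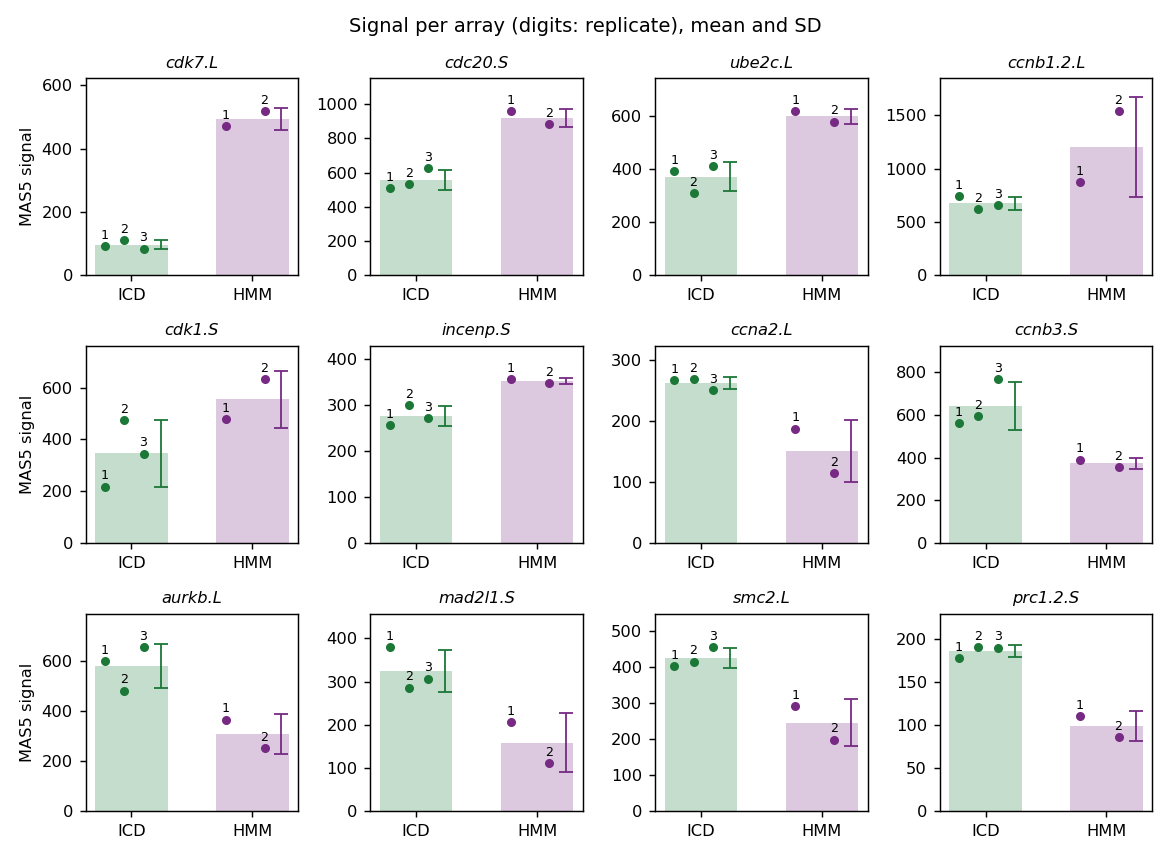
MAS5 signal of 12 member probe sets on each array, with ICD left of HMM. The 12 were picked by hand and all have groups that do not overlap. Groups overlapped for 58 of the 96 tested member probe sets, so the panels do not stand for the members. Points are arrays with their replicate number, bars are group means, error bars are SDs (n = 3 ICD, n = 2 HMM), and every axis starts at 0. In the panels from cdk7.L to incenp.S every ICD array lies below both HMM arrays, and in those from ccna2.L to prc1.2.S every ICD array lies above both; cdk7.L alone passed the test.

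Aurora kinases and the chromosomal passenger complex gave a mixed picture, with 6 of 9 tested probe sets above 0 and none past the threshold. Aurora B, the kinase of the complex, corrects faulty attachments of chromosomes to the spindle. For aurkb.L the ICD arrays read 601.5, 483.3 and 658.7 and the HMM arrays 367 and 252.9. The groups do not overlap, and the difference was 0.91 ± 0.28 (SE; limma adjusted p = 0.126). Its homeolog aurkb.S read 648.5, 414.2 and 515 in ICD but 580.9 and 218.9 in HMM, so HMM replicate 1 lies inside the ICD range and HMM replicate 2 below it; its difference of 0.53 was -0.17 without HMM replicate 2.

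The partners of Aurora B in the complex, survivin (birc5) and Incenp, had probe sets on both sides of 0. For birc5.S the values were 224.3, 242.6 and 285.2 in ICD and 329.5 and 329.7 in HMM, with a difference of -0.39 ± 0.24 (SE; limma adjusted p = 0.431). The probe set of incenp.S read 256.3, 299.5 and 271 in ICD and 356.2 and 347.3 in HMM, a difference of -0.35. Both groups are tight and do not overlap, yet the difference is small. The homeolog incenp.L differed by 0.40 (0.01 without HMM replicate 2), and the survivin-like genes birc5l.S and birc5l.L by 0.46 and 0.13. Aurora A, the spindle-pole kinase, differed by -0.13 for aurka.L and 0.37 for aurka.S, with overlapping groups.

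The Polo-like kinase Plk1, which acts from mitotic entry to cytokinesis, was close to level. Its brightest probe set, of plk1.S, read 550.7, 559.6 and 690.5 in ICD and 472.6 and 492.5 in HMM, a difference of 0.30 with a 95% interval of -0.24 to 0.85. The other plk1.S probe sets differed by 0.12 and 0.09. A 2-fold change in either direction lay outside the interval for all 3. Of the stress-responsive kinases Plk2 and Plk3, the tested probe sets of plk2.S and plk3.L had larger but noisier differences. For plk3.L the ICD arrays read 103.6, 197.7 and 295.5 and the HMM arrays 66.2 and 127.6 (difference 0.94; limma adjusted p = 0.345). The signal of plk2.S was 130.4 on ICD replicate 1 and 47.6 and 47.4 on ICD replicates 2 and 3, beside 45.6 and 34 in HMM. ICD replicate 1 thus makes most of its difference of 0.69, which was 0.24 without that array. A brighter probe set that matches both plk2 homeologs, and so is no member, differed by 0.20, with overlapping groups. The probe set of plk2.L, too dim to test, read 19.2, 26.2 and 24.9 in ICD and 46.2 and 39.6 in HMM.

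Of the spindle checkpoint genes, 5 of 6 tested probe sets lay above 0 and none passed. The largest member difference above 0 belonged to mad2l1.S, which encodes Mad2, the protein that blocks Cdc20 while kinetochores are unattached. It read 380.6, 286.1 and 306.9 in ICD and 206.2 and 110.3 in HMM, without overlap, with a difference of 1.06 ± 0.33 (SE; limma adjusted p = 0.13). Without HMM replicate 2 it was 0.63 and no longer the largest, since plk3.L was then at 1.39. A dimmer probe set of the same gene differed by 0.29. The checkpoint genes bub1b.L and bub3.L differed by 0.24 and 0.22, and mad1l1.L, whose product anchors Mad2 at kinetochores, by -0.13. The probe set of ttk.S, the kinase at the top of the checkpoint, was too dim to test.

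Centromere and kinetochore genes were measured on dim probe sets, and 7 of 9 could be tested. Their median difference was 0.16, and none passed. The Ndc80 complex grips spindle microtubules. Its member gene ndc80.S read 237.8, 167.2 and 172.2 in ICD and 219.2 and 104.5 in HMM, so the HMM arrays span most of the ICD values. Another subunit gene, spc24.L, read 108.5, 143.9 and 112.3 in ICD and 60.6 and 87.9 in HMM, a difference of 0.68 without overlap (limma adjusted p = 0.259). The gene cenpv.L had all ICD arrays below HMM, at 75.9, 61.9 and 123.4 against 128.9 and 126.8, a difference of -0.58.

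All 14 tested probe sets of condensin and cohesin, the ring complexes that compact chromosomes and hold sister chromatids together, lay above 0, from 0.03 to 0.98. None passed, and the count rests on 1 array. HMM replicate 2 was the lowest of the 5 arrays for all 14, and without it 7 of the 14 lay above 0 and their median was 0.05, where it was 0.29 with all arrays. The condensin core gene smc2.L read 402.2, 413.9 and 454.9 in ICD and 290.7 and 198 in HMM, a difference of 0.80 ± 0.26 (SE; limma adjusted p = 0.147) that was 0.53 without HMM replicate 2. Its partner smc4.L read 1022.3, 867.4 and 932.3 in ICD and 1022.2 and 671.9 in HMM, and here HMM replicate 1 all but equals the highest ICD array. The condensin I subunit gene ncapd2.S read 240.8, 173.6 and 213.2 in ICD and 157.6 and 65.7 in HMM (difference 0.98; 0.38 without HMM replicate 2). The cohesin core gene smc1a.L differed by 0.03 and 0.05 on its probe sets.

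Among spindle assembly and cytokinesis genes, prc1.2.S had the smallest p of all members in mitotic roles. Prc1 bundles the microtubules of the spindle midzone. The ICD arrays read 178.5, 191.3 and 190.4 and the HMM arrays 110.9 and 86.4. The ICD arrays nearly coincide and lie well above HMM, with a difference of 0.89 ± 0.25 (SE; limma adjusted p = 0.104). The gene anln.L, for the cleavage-furrow scaffold anillin, read 344, 348.8 and 366.5 in ICD and 275.6 and 242.3 in HMM (difference 0.44). The spindle assembly factor genes tpx2.L and tpx2.S differed by 0.29 and -0.06, with overlapping groups.

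Of the 16 tested probe sets caught by the stem, cdk7.L was the 1 that passed. Of the 16, 12 lay above 0, with a median of 0.31 over the 16. Among these 12 were cdk16.L at 1.00 and 0.38, cdk4.S at 0.65, cdk11b.S at 0.18 to 0.65 and cdk5.L at 0.53. These genes were picked by hand and do not stand for the group. The cdk16.L probe set at 1.00 read 55.1, 57.7 and 79.7 in ICD and 29.3 and 28.2 in HMM. Both HMM values lie under the filter level. It was thus tested through its ICD arrays alone, and the size of its difference is uncertain. The kinase gene cdk17.S lay below 0, at 57.6, 83.9 and 73.4 in ICD and 117.1 and 117.2 in HMM (difference -0.68; limma adjusted p = 0.234). The transcriptional kinase gene cdk9.L was near 0, at 0.09, and varied within ICD, with 92.4 on replicate 1 and 189.1 and 206.2 on the others. The gene cdk2ap1.S, for a Cdk2-associated protein, differed by -0.19.

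The members' lean above 0 rests on 1 HMM array. HMM replicate 2 was the lowest of the 5 arrays for 56 of the 96 members (58.3%), beside 34.2% of all tested probe sets. HMM replicate 1 lay above HMM replicate 2 for 73 members (76.0%), beside 54.2% of all tested probe sets. Set against HMM replicate 1 alone, the ICD mean was higher for 52 of 96 members, with a median difference of 0.03. Set against HMM replicate 2 alone, it was higher for 76 of 96, with a median of 0.38. Over all tested probe sets these medians were 0.01 and 0.13. The members' median of 0.28 with all arrays thus depends on HMM replicate 2. Among the larger roles, only the APC/C group had a median below 0 against each HMM array. It was -0.42 against HMM replicate 1 and -0.16 against HMM replicate 2. Its count also depended on the array: 3 of 14 lay above 0 against HMM replicate 1, and 7 of 14 against HMM replicate 2.

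**Figure D3:**
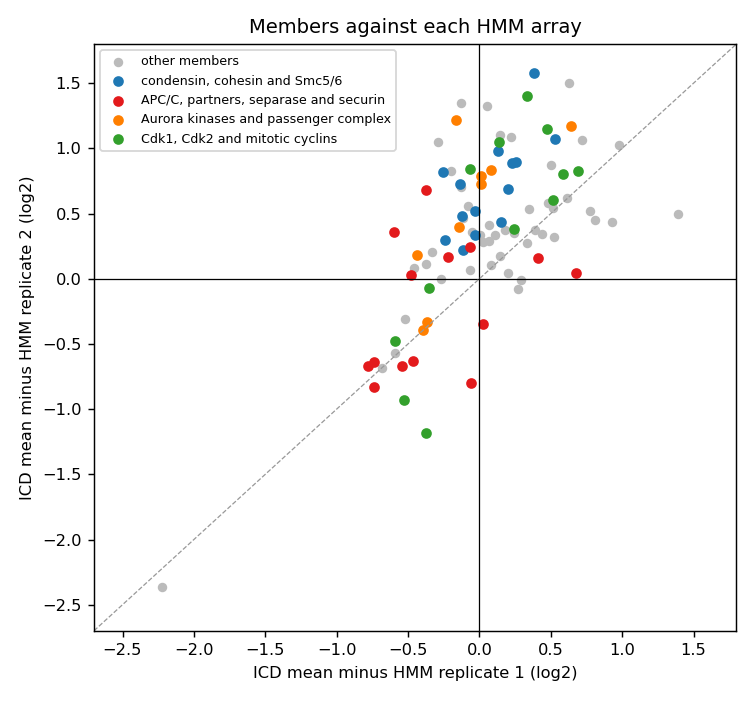
Mean of the 3 ICD arrays minus HMM replicate 1 (horizontal) and minus HMM replicate 2 (vertical), on the log2 scale, for the 96 tested member probe sets. Coloured points are 4 roles, and the dashed line marks equal differences. Most points lie above the dashed line, since 73 of 96 members read higher on HMM replicate 1 than on replicate 2, as did 54.2% of all tested probe sets. Several APC/C and cyclin points lie below 0 on both axes, and cdk7.L is the grey point at the lower left.

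Every ICD array lay above both HMM arrays for 25 of 96 members, where 20.4% of all tested probe sets did so, and below both for 13, where 17.0% did. Neither count stands far from its background. The 13 below were of cdk7.L and cdk17.S, of cdk1.S, ccnb1.2.L and ccnb1.2.S, of cdc20.L, cdc20.S, ube2c.L, anapc7.S and espl1.L, of birc5.S and incenp.S, and of cenpv.L. Among them, espl1.L was tested through its HMM arrays alone.

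With all arrays, homeologs mostly had the same sign. Both copies of 15 genes were tested, on the brightest probe set of each. The signs were the same in 11 pairs, and the copies differed by a median of 0.33 on the log2 scale. The 4 pairs of opposite sign were ube2c, incenp, aurka and tpx2, with the widest gap, 0.97, in ube2c. Against HMM replicate 1 alone, aurkb, ccnb2 and birc5l took opposite signs and tpx2 took the same sign. Of the 80 member genes on 1 probe set each, 70.0% lay above 0, so many shared signs would arise without any link between copies. Probe sets of homeologs can share signal where the copies are alike in sequence, so their separate values are uncertain.

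**Figure D4:**
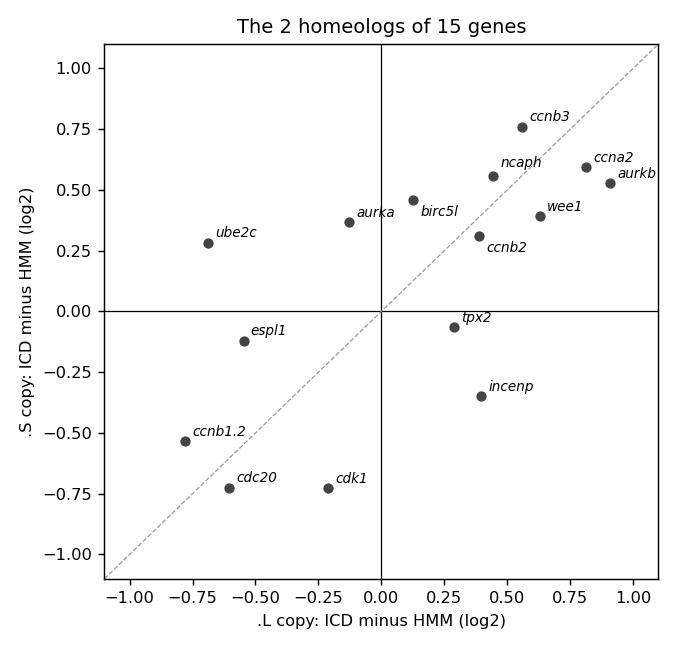
Difference between ICD and HMM explants on the log2 scale for the .L copy (horizontal) and the .S copy (vertical) of 15 member genes, each on its brightest tested probe set. The dashed line marks equal differences. Both copies of cdc20, ccnb1.2, cdk1 and espl1 lie below 0, where espl1.L was tested through its HMM arrays alone. Both copies of ccna2, ccnb2, ccnb3, aurkb, birc5l, wee1 and ncaph lie above 0. The genes ube2c, aurka, incenp and tpx2 fall in the quadrants of opposite sign.

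Other genes of mitosis, taken from a list of textbook names outside the stems, were called about as often as any others. Of 72 tested probe sets in that list 3 were lower in ICD (4.17%, beside 3.5% of all), none was higher and 69 did not pass. Bora, the cofactor through which Aurora A activates Plk1, was lower in ICD on both probe sets of bora.S. The brighter read 25.3, 35.4 and 23.9 in ICD and 215.6 and 215.7 in HMM. All its ICD values lie under the filter level, so it was tested through its HMM arrays alone and the size of the difference, -2.72 ± 0.29 (SE; limma adjusted p = 0.0109), is uncertain. It was not called without HMM replicate 2 (adjusted p = 0.115). The other was 2.3-fold lower in ICD (adjusted p = 0.0416 in limma). With 1 array left out it stayed called only where that array was ICD replicate 1, and the other adjusted p were 0.112 to 0.284; it was also lost with no filter (0.067) and with a filter at the 60th percentile (0.0757).

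The centrosomal kinase gene nek2.S read 358.3, 523.1 and 543.6 in ICD and 1050.1 and 1695 in HMM, a difference of -1.50 ± 0.31 (SE; limma adjusted p = 0.039). Both HMM arrays lie well above ICD, but the call was lost in eBayes without trend (adjusted p = 0.053) and when ICD 2, ICD 3 or HMM 2 was left out (0.1, 0.087 and 0.275). A second nek2.S probe set differed by -1.23 and did not pass. The topoisomerase gene top2a.L, a marker of dividing cells, lay in the other direction at 231.8, 218.6 and 216.2 in ICD and 128.7 and 67.4 in HMM (2.3-fold higher; limma adjusted p = 0.0872; log2 difference 0.76 without HMM replicate 2). The proliferation marker mki67.S differed by -0.005 and the mitotic kinesin genes kif20a.L and kif23.S by -0.01 and -0.05. All 3 were picked out after their values were seen and do not stand for the list. Of its 72 tested probe sets 52 lay above 0, with a median of 0.28, which was 0.04 without HMM replicate 2. Signals of mki67.S varied widely, at 344.1, 156.9 and 84.9 in ICD and 269.8 and 103.3 in HMM. Its interval, -1.46 to 1.45, reached past 2-fold in either direction, so it does not show that the groups were equal.

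Of the 55 tested probe sets of an S phase and replication list, 50 lay above 0, with a median of 0.60. Among the 96 members 71 lay above 0, with a median of 0.28, and among all probe sets 55.9% did; the difference between the lists was not tested. The median of the S phase list was 0.27 against HMM replicate 1 alone and 0.95 against HMM replicate 2 alone. The 1 that passed was mcm5.L, a subunit gene of the replicative helicase, at 603.2, 475.7 and 561.1 in ICD and 244.1 and 179.8 in HMM. It was higher in ICD, with a difference of 1.35 ± 0.26 (SE; limma adjusted p = 0.0328), a call that was kept without ICD replicate 1 and lost without any 1 of the other arrays (adjusted p = 0.0581 to 0.233). The replication clamp gene pcna.S and the licensing gene cdt1.L had differences of 1.04 and 0.92, neither past the threshold. Smaller differences were seen for the homeolog pcna.L, at 0.57, and a second cdt1.L probe set, at 0.58 with overlapping groups. As with the members, HMM replicate 2 was the lowest array for 41 of the 55.

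Markers of non-dividing skin cells moved with the groups and with the HMM arrays. Of 22 tested probe sets of multiciliated cell genes, 19 were lower in ICD, and the summed signal of the 19 genes was 3852 to 8808 on the ICD arrays and 21097 and 29969 on HMM replicates 1 and 2. Of 12 ionocyte probe sets 11 were lower in ICD, and their sum was 352.1 to 536.5 in ICD and 16192 and 29924 in HMM. Over all tested probe sets 3.5% were called lower. The defining ionocyte factor foxi1.L read 3.4, 2.4 and 17.9 in ICD. These values lie under the filter level, so it could be tested only through its HMM arrays, which fixed the direction. With ICD sums this low over 12 genes, the same limit may hold for other ionocyte probe sets, and the sizes are uncertain. On HMM replicate 2, where both marker sums were highest, the sum of the 80 member genes was lowest, at 19342, beside 23338 on HMM replicate 1 and 21221 to 23552 on the ICD arrays. The S phase sum was 9467 to 14127 in ICD, and 8534 and 5464 in HMM. The part of these cell types in the differences of cdk7.L, bora.S, nek2.S and the other mitotic genes was not tested, and in whole explants fewer cells of a type and less RNA per cell cannot be told apart.

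**Figure D5:**
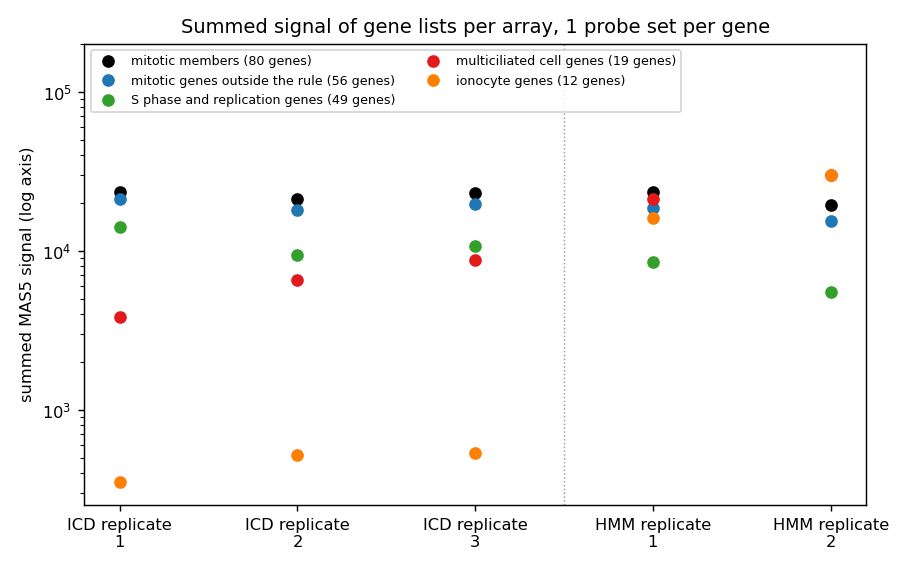
Summed MAS5 signal on each array (log axis) of the 80 tested member genes, 56 other mitotic genes, 49 S phase genes, 19 multiciliated cell genes and 12 ionocyte genes, with the brightest probe set of each gene. The dotted line separates ICD from HMM arrays. The mitotic sums lie between 15307 and 23552 on every array, while the ciliated and ionocyte sums are far lower on the ICD arrays and coincide on HMM replicate 2.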

How the data were processed

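The authors deposited 1 linear signal intensity per probe set and array, made with MAS5 per the submitters' processing notes; its version is not given in the sources used here. MAS5 scales arrays to a common mean (2% trimmed mean 200.03 on each), which removes differences in total RNA. Of 15611 probe sets, 120 controls were left out. The platform annotation gave 1 symbol to 9304, several to 195 and none to 5992; all 114 member IDs matched a RefSeq table (Xenopus_laevis_v10.1). Another 2 probe sets matched both homeologs of a member gene and were an alternative only.

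Values were tested as log2(value + 5.9), the 10th percentile, with a filter at 42.6, the 40th percentile, on at least 2 arrays. The fit was limma's lmFit and eBayes with trend (limma 3.58.1, R 4.3.3) on 5 arrays with no covariate; p-values are two-sided and adjusted by Benjamini-Hochberg over 9981 probe sets. It was tested on simulated data. Standard errors and intervals are limma's. The number of arrays limits the precision. Figures used matplotlib 3.10.9.

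Named members were those past the threshold, the 2 smallest p and brightest gene per role, a fixed set of core genes, the 6 most variable within ICD, and the 3 smallest p per pathway list. Genes outside this rule appear in counts or ranges, are marked, or were picked by hand and do not stand for their role. Those picked by hand include cdk2.S, cdk16.L, cdk4.S, cdk11b.S, cdk5.L, birc5l.L, birc5l.S, mad1l1.L and smc1a.L. Members and lists were chosen with earlier results of these data known. Alternatives were other scalings, pseudocounts, filters, variance models and thresholds, each array left out, and the replicate number as a block.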

Additional observations from a re-analysis of the deposited data

How the results depend on the processing

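The call of cdk7.L was kept in 12 of 14 alternatives. The count of lower members was 0 without ICD replicate 2 or HMM replicate 2 and otherwise 1 with an array left out (0 to 1), and that of higher members was 0 throughout these fits (0 to 0). Leaving out the members caught by the stem was chosen after seeing the data, and then no member was lower (0). Over all probe sets, the higher count ran from 1 to 362 and the lower count from 10 to 481 with an array left out, and at a threshold of 0.10 they were 299 and 558. The members' median of 0.28 ran from 0.0252, without HMM replicate 2, to 0.377. With the replicate number as a block, 744 of 9981 probe sets were higher and 970 lower. Of the 96 tested members 6 were higher and 4 lower, and both shares lie under those of all probe sets. The members were prc1.2.S, ncapd2.S, cdk2.S, mad2l1.S, aurkb.L and cdc25a.L higher, and cdk7.L, cdc20.S, ube2c.L and pttg1ip.1.L lower. The deviations of ICD replicate 1 and HMM replicate 1 from their group means correlated at 0.651 across probe sets. Those of ICD replicates 2 and 3 correlated with HMM replicate 2 at 0.508 and 0.400. Deviations of 2 HMM arrays are exact opposites, so some ICD array had to correlate above 0 with HMM replicate 1. These values therefore do not show a shared batch. The labels do not say that numbers mark a shared batch and only 2 pairs exist, so this block is no main result. Differences that changed sign belonged to members that had not passed. ICD replicate 3 is the only array with its number, so the block takes its differences from the other arrays alone. They equal the differences without ICD replicate 3, with a members' median of 0.259 in both. Under the block cdk9.L was at -0.11. With an array left out, the ranges were -0.11 to 0.44 for cdk9.L, -0.82 to 0.012 for pttg1ip.1.L, -0.43 to 0.18 for aurka.L, -0.17 to 1.22 for aurkb.S, -0.067 to 0.84 for ccnb2.L, -0.46 to 0.086 for cdk2ap1.S, -0.20 to 0.83 for ndc80.S, -0.12 to 0.48 for smc4.L, -0.13 to 0.71 for tpx2.L and -0.34 to 0.21 for tpx2.S. Quantile normalization, median centring, pseudocounts, filters and variance models left each member call as it was. Dim kinetochore probe sets limit what could be seen there. The cause was not tested for any of these shifts.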
